A study of Mus musculus with 23 samples.

Results

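Splenic CD3+ T cells were compared with a diluted RNA in the libraries of the largest input of each, that is, 3 libraries from 10000 T cells and 3 libraries from 5 ng of RNA, 6 of the 23 libraries of the series. They were chosen by their input labels, and every gene of the count table entered the comparison. All libraries were made by a low-input poly(A) RNA protocol in which double-stranded cDNA is cut and tagged by the transposase Tn5. Both groups are labelled as mouse strain C57, aged 6 to 18 weeks, with no treatment, genotype or sex given. The T cells are labelled spleen T cell, and the series design calls the RNA material from spleen. The labels of the RNA libraries name instead RAW 264.7, a macrophage line, so the origin of that RNA is described below through its marker genes. The labels do not say how the T cells were isolated. Whether the 3 replicates of a group are separate animals, cell preparations or dilutions is not given, so p-values measure the spread between these libraries, which may be technical. Material, isolation and library batch go together in this comparison and cannot be told apart. The animals may differ in sex too, as Y-linked genes, described below, were nearly absent from the T cells and present in the RNA. Libraries from 1000 T cells and from 1 ng of the RNA, with 3 each and the same labels otherwise, served as a second pair of groups.

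T cells recognise antigen through a receptor made of variable alpha and beta chains (or gamma and delta chains) that carry no signalling part of their own. The CD3 chains and the zeta chain CD247 hold the signalling motifs, called ITAMs, which Lck phosphorylates so that ZAP-70, LAT and SLP-76 can relay the signal. B cells use the same layout with other parts: immunoglobulin as the receptor, CD79A and CD79B as the ITAM chains, Lyn and Blk as the first kinases, Syk in the place of ZAP-70, and BLNK as the adaptor. A spleen holds B cells as its most numerous lymphocytes beside T cells, red pulp macrophages that recycle iron, dendritic cells, granulocytes, plasma cells and, in mice, sites of red cell formation.

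The T cell libraries held 3401992 to 3627647 counts and the RNA libraries 6841726 to 7908638. Log-scale values correlated across genes at Pearson's r of 0.965 to 0.967 between T cell libraries and 0.989 to 0.99 between RNA libraries. Pairs of libraries within a group differed by more than independent counts would, at a chi-square per gene of 3.07 to 3.56. Counts here are not independent molecules, so this cannot separate differences between libraries from sampling noise. Olfactory receptor genes, taken as a set that is mostly inactive in lymphocytes and spleen, gave a reference level for counts. Whether single receptor genes of this set are active here was not tested. Their mean level over 1092 genes was 0.677 CPM per kb, that is, counts scaled by library total and by kilobases of exon, in T cells and 0.0439 in the RNA. Between 87.9% and 90.2% of them had a count in a T cell library, against 24.5% to 25.2% in an RNA library. The predicted gene Gm10800 took 3.34% to 3.76% of the T cell counts and 0.407% to 0.544% of the RNA counts. What part these counts have in a small rise of any 1 gene was not tested.

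Claims below are therefore limited to genes whose mean level, in the group where the gene was higher, was at least 5 times the 95th percentile of the olfactory receptor genes in that same group. The bar came to 6.22 CPM per kb in T cells and 0.814 CPM per kb in the RNA. Of 22488 gene symbols, 14425 passed the filter on low counts and were tested. Of these, 9467 were protein-coding or antigen receptor segment genes above the bar and are called kept genes here, and they held 93.6% of T cell counts and 96.4% of RNA counts. Just inside the bar, Tmem63b averaged 31.7 CPM in T cells and 14.5 CPM in the RNA. Just outside it, Ptger4 averaged 41.4 CPM in T cells and 31.3 CPM in the RNA, and Taf13 19.6 CPM in T cells and 17.1 CPM in the RNA. The 4606 tested protein-coding or antigen receptor segment genes that were not kept included 2084 called higher and 5 called lower in T cells. Their median log2 fold change was 0.79. None of them, and none of the tested genes of other types, is read further.

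**Figure D1:**
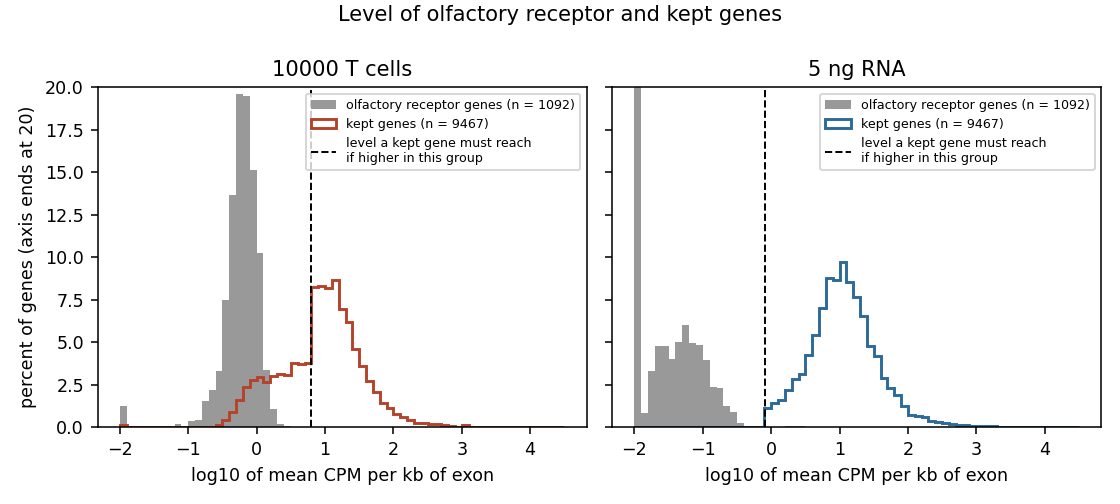
Level of olfactory receptor genes (filled) and kept genes (outline) in 10000 T cells, left, and in 5 ng RNA, right, as a histogram over the log10 of mean CPM per kb, with levels under 0.01 drawn at the left edge. The olfactory receptor genes lie around a median of 0.628 CPM per kb in T cells and 0.0131 in the RNA, and the dashed bars stand at 6.22 and 0.814 CPM per kb. The step in the T cell outline at the bar follows from the rule.

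Most kept genes differed between the materials. Of all genes tested, 8073 (56%) were called at an adjusted p under 0.05 in edgeR's quasi-likelihood test, 28.7% higher and 27.3% lower in T cells. Of the 9467 kept genes, 5651 (59.7%) were called, 1718 (18.1%) higher and 3933 (41.5%) lower. The bar is lower in the RNA than in T cells, so genes lower in T cells enter more easily. Called changes of more than 2-fold were seen in 382 kept genes higher and 1839 lower, and over 8-fold in 13 higher and 535 lower. With the T cell bar used in both groups, an alternative chosen after seeing the data, 7325 genes stayed, 1718 of them (23.5%) higher and 2875 (39.2%) lower, with 382 higher and 1168 lower by more than 2-fold and 13 higher and 482 lower by more than 8-fold. With the olfactory receptor level taken off each gene, the kept genes split into 2476 higher and 3225 lower. Over all genes tested the median log2 fold change was 0.027 under TMM scaling and 0.14 under library sizes alone, so small changes are relative to the scaling. In bulk libraries such as these, fewer cells of a type and less RNA per cell cannot be told apart.

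**Figure D2:**
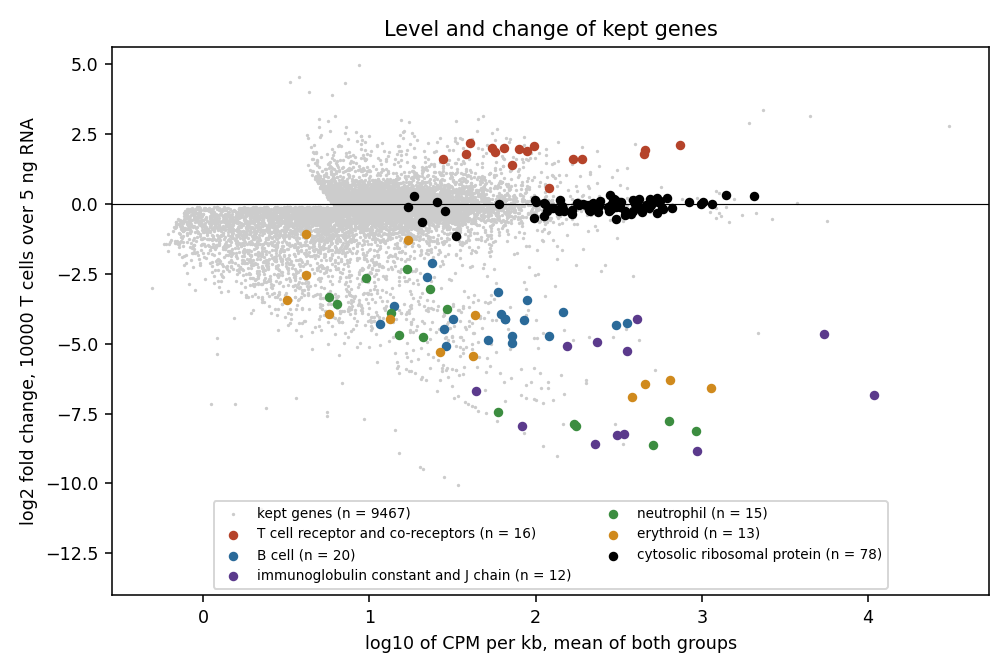
Log2 fold change of 10000 T cells over 5 ng RNA (vertical) against the log10 of the mean level of both groups in CPM per kb (horizontal), for kept genes (grey) and for members of 6 lists. All 16 T cell receptor and co-receptor genes lie above 0, the B cell, immunoglobulin, neutrophil and erythroid genes lie below it, and the 78 ribosomal protein genes lie near it.

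The signalling chains of the T cell receptor rose together in T cells. Cd3d stood at 288, 269 and 309.8 CPM in T cells and 67.8, 55.4 and 66.3 CPM in the RNA. Cd3e, its partner in the complex, stood at 399.6, 425 and 461 CPM in T cells and 98.7, 101 and 95.5 CPM in the RNA. Every T cell library exceeded every RNA library for both genes. Cd3g had 282, 308 and 296 CPM in T cells and 81, 78.2 and 70.4 CPM in the RNA, and Cd247, the zeta chain, had 316, 296 and 346 CPM in T cells and 89, 81.5 and 85.7 CPM in the RNA. The log2 fold changes were 2.08 (SE 0.079, adjusted p = 1.6e-32) for Cd3d, 2.01 (SE 0.065) for Cd3e, 1.84 (SE 0.074) for Cd3g and 1.79 (SE 0.072) for Cd247, so the 4 chains stayed within a narrow range of each other. The receptor chains themselves moved by a like amount. Trac, the alpha constant region, had 688, 667 and 699.9 CPM in T cells and 168, 171 and 163 CPM in the RNA. Trbc1 and Trbc2, the beta constant regions, rose by 1.78 and 2.12 on the log2 scale, but they are near-identical copies and the split of reads between them is uncertain. Cd8b1, the beta chain of the co-receptor CD8, rose by 1.61 (SE 0.061). All 16 members of the list of receptor and co-receptor genes rose, where 18.1% of kept genes did, with a median of 1.87 and a range of 0.57 to 2.18, and they held 0.733 ± 0.020% of T cell counts and 0.198 ± 0.0049% of RNA counts (SD, n = 3 each). Among the T cell receptor variable genes, 28 of 30 kept members rose and 0 fell. A gene is kept by its level in the group where it is higher, so these counts partly follow from that rule. All such genes, kept or not, held 0.0416% of T cell counts and 0.00935% of RNA counts.

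The promoters of these 4 chains, which lie on different chromosomes or strands, are shown as a description of their sequence. What part the promoters have in the rises was not tested. Each window runs from 250 bases before to 50 bases after the RefSeq start of the gene, in GRCm38.p6, written 5′ to 3′ along the strand of the gene, and capitals mark matches to CAGGTG, an E-box of the kind that E proteins bind, on either strand.
Cd3d, chr9:44981536-44981835, plus strand: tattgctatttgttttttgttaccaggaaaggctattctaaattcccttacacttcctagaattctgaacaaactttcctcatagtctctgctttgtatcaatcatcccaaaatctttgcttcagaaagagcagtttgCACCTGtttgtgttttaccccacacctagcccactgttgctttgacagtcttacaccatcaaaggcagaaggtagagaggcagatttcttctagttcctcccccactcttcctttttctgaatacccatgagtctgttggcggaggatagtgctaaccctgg
Cd3e, chr9:45009562-45009861, minus strand: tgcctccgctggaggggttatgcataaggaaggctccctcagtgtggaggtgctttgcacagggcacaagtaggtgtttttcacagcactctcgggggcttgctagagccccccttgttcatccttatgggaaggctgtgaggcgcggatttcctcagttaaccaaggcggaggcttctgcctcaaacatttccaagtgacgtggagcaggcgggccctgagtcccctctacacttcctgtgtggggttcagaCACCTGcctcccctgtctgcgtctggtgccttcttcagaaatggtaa
Cd3g, chr9:44980382-44980681, minus strand: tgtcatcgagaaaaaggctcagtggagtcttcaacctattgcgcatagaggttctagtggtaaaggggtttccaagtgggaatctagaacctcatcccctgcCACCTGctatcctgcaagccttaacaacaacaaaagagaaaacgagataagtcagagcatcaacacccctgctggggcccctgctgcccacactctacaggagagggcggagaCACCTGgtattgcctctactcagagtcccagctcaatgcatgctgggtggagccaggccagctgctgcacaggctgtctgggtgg
Cd247, chr1:165788431-165788730, plus strand: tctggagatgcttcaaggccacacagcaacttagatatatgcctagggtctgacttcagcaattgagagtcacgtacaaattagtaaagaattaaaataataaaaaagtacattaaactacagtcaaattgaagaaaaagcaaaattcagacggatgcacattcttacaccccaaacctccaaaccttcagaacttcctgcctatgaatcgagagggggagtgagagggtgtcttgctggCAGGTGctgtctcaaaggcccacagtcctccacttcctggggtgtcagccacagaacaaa

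Cd3d and Cd3g start close to each other on opposite strands of chromosome 9. Cd3d, Cd3e and Cd247 had 1 match each and Cd3g had 2, while 20.2% of all 32851 promoter windows held at least 1. The promoter of Cd79a, the B cell counterpart, also held 1 match, so the match does not separate the 2 kinds of chain. Of the other motifs searched on both strands, GAGGAA (in 28.3% of windows) matched in Cd3d, Cd3e and Cd79a, and ACAGGAAG (3.58%) in Cd3e, Cd79a and Fcer1g. TGTGGT (16.8%) matched in Fcer1g alone of these 6 promoters. The motifs ATGCAAAT (1.74%), GAGGAAGT (3.2%, which contains GAGGAA) and CCCNNGGG (13.7%) matched in none of them. A match is a stretch of letters, and binding was not measured.

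The 4 ITAM chains of other cell types fell as far as the CD3 chains rose, or farther. Cd79a had 55.8, 41.6 and 35.6 CPM in T cells and 836, 838 and 839 CPM in the RNA. Cd79b had 58, 49.6 and 55.3 CPM in T cells and 973, 945 and 948 CPM in the RNA. Tyrobp, the chain of natural killer and myeloid receptors, had 7.81, 8.27 and 6.17 CPM in T cells and 113, 105 and 112 CPM in the RNA. Fcer1g, the chain of Fc receptors, had 9.76, 3.31 and 8.23 CPM in T cells and 66.2, 72.5 and 74.7 CPM in the RNA. The groups of libraries did not overlap for any of the 4, and the log2 fold changes were -4.35 (SE 0.075), -4.25 (SE 0.063), -3.99 (SE 0.16) and -3.44 (SE 0.20) in that order.

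The kinases and adaptors behind the receptors included both genes higher and genes lower in T cells. All 26 members of the list were kept and called, 14 higher and 12 lower in T cells, and these 2 counts stayed the same under each scaling, filter, depth and leave-one-out setting tried. Among Src kinases, Lck had 1102, 1067 and 1110.2 CPM in T cells and 288, 287 and 252 CPM in the RNA. Fyn, which T cells also use, rose by 0.97 (SE 0.056). Blk, the B lymphoid kinase, had 24.8, 15.4 and 25.6 CPM in T cells and 314, 309 and 308 CPM in the RNA. Lyn fell by 4.15 (SE 0.084) and Fgr, a myeloid member, by 3.85 (SE 0.16), both on the log2 scale. The T cell members of the family named here thus stood on the other side of 0 from its B cell and myeloid members.

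The Tec kinases gave the same picture. Txk, a T cell member, had 199, 186 and 189 CPM in T cells and 52.5, 52.7 and 62.8 CPM in the RNA and rose by 1.66 (SE 0.089) on the log2 scale. Btk, which B cells need to develop, had 10.9, 10.5 and 10.6 CPM in T cells and 140.5, 127 and 127 CPM in the RNA, and Tec fell by 1.92 (SE 0.11). In the pair of kinases that dock on ITAMs, Zap70 had 297, 284 and 294 CPM in T cells and 95, 80.5 and 71.9 CPM in the RNA. Syk, its counterpart outside the T lineage, had 39, 49.3 and 37.6 CPM in T cells and 855, 841 and 836 CPM in the RNA. Zap70 rose by 1.71 (SE 0.077, adjusted p = 7.1e-29) and Syk fell by 4.44 (SE 0.07, adjusted p = 1.6e-53) on the log2 scale.

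Adaptors followed. Lat had 630.5, 615 and 633 CPM in T cells and 115, 128 and 130.4 CPM in the RNA, while Lat2, its relative in B cells and myeloid cells, had 3.63, 2.76 and 2.65 CPM in T cells and 42.5, 33 and 34.3 CPM in the RNA. Lcp2, which encodes SLP-76, rose by 1.06 (SE 0.066), and Blnk, the B cell relative, fell by 4.47 (SE 0.099). Grap2, the GADS adaptor that joins LAT to SLP-76, and Skap1, an adaptor in integrin activation, rose by 1.10 and 1.67. Themis, needed for T cell selection in the thymus, rose by 1.62 (SE 0.097), and Themis2, its B cell and macrophage relative, fell by 3.85 (SE 0.11). Further down the pathway the pairs split again. Prkcq, protein kinase C theta, had 582, 523 and 528 CPM in T cells and 136, 128 and 121 CPM in the RNA. Prkcb, protein kinase C beta of B cells, had 204, 218 and 237 CPM in T cells and 483, 492 and 507 CPM in the RNA, a change of -1.28 (SE 0.058) that was the smallest fall among the 12. Plcg1 rose by 1.60 (SE 0.065) and Plcg2 fell by 3.85 (SE 0.085), which are the phospholipases C gamma used by T cells and by B and myeloid cells. Both Ubash3a and Ubash3b, phosphatases that restrain ZAP-70, rose, by 1.76 (SE 0.10) and 0.44 (SE 0.11).

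**Figure D3:**
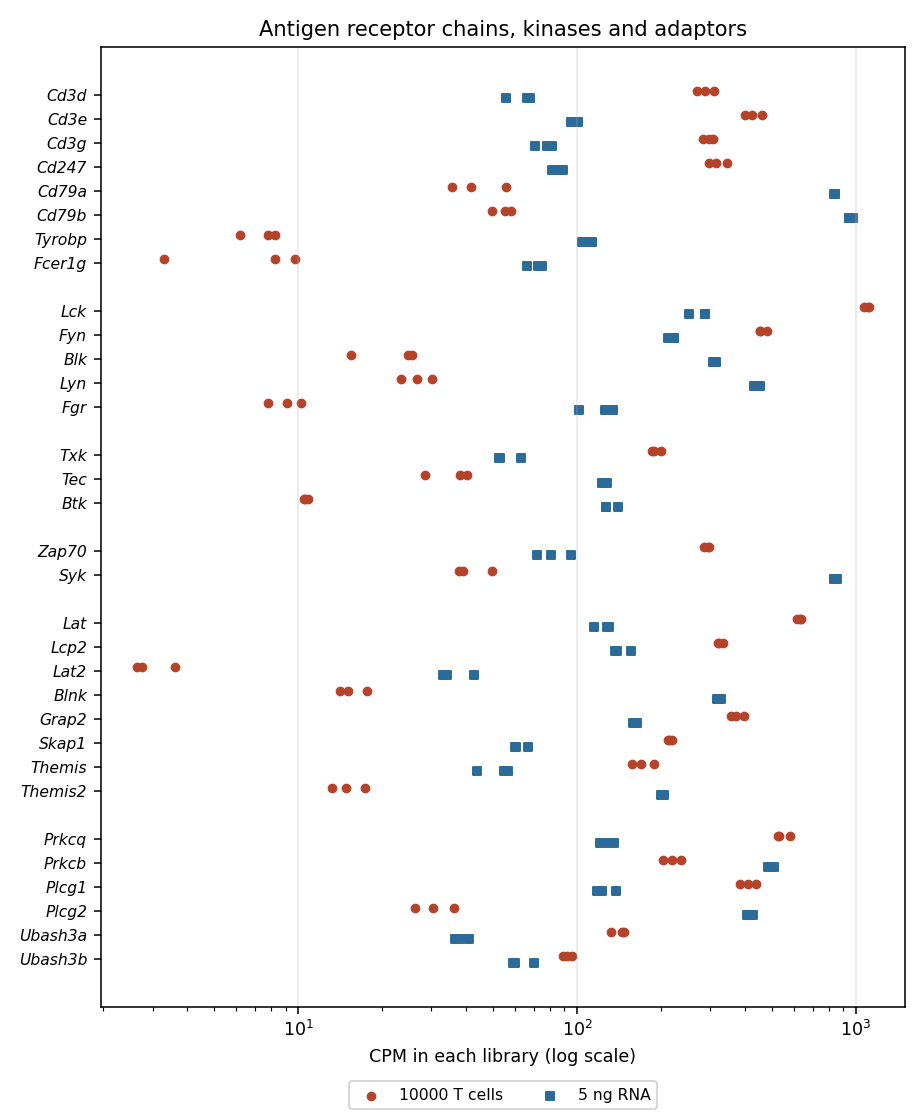
CPM in each library (log scale) for 8 ITAM-bearing chains and 24 kinases and adaptors, with 10000 T cells as circles and 5 ng RNA as squares (3 libraries each, some points overlap). The T cell members lie to the right in T cells (Zap70 at 297, 284 and 294 CPM). The B cell or myeloid members lie to the left (Syk at 39, 49.3 and 37.6 CPM), least so Prkcb, whose fall was the smallest. Ubash3a and Ubash3b both rose.

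Transcription factors of the T lineage also rose, 10 of 12 list members (83.3%, against 18.1% of all kept genes). Of the 12, 0 fell, and the median log2 fold change was 1.13. Tcf7, which encodes TCF-1, had 1735, 1703 and 1711 CPM in T cells and 378, 356 and 341 CPM in the RNA. Ets1 had 1589, 1494 and 1542 CPM in T cells and 811, 854 and 849 CPM in the RNA, a smaller rise of 0.77 (SE 0.04), and Foxo1, which sustains naive T cell homing, rose by 0.82 (SE 0.052). Ikzf1, which encodes Ikaros and is used by all lymphocytes, had 845, 861 and 829.8 CPM in T cells and 775, 791 and 772 CPM in the RNA. Its log2 fold change of 0.0061 (SE 0.043, adjusted p = 0.92) did not pass. It was called higher under library sizes alone (0.12) and with the olfactory receptor level taken off (0.26), and it was below 0 with no filter on low counts (-0.095).

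Genes of naive and resting T cells were called higher for 12 of 14 members (85.7%, against 18.1% of all kept genes). Klf2, a factor of quiescence and of exit from lymphoid organs, had 722, 715 and 728 CPM in T cells and 349, 335 and 339 CPM in the RNA. Ccr7, the receptor that brings T cells to lymph nodes and to the splenic T cell zone, had 624, 554 and 588 CPM in T cells and 248, 243 and 256 CPM in the RNA. Il7r, the receptor for the survival cytokine interleukin 7, rose by 1.59 (SE 0.056). The anti-proliferative Btg1 rose by 0.27 (SE 0.043), and Slfn2, a gene of quiescence, by 0.19 (SE 0.059), a call lost with no filter on low counts (0.09) and without replicate 2 (0.14) or replicate 3 (0.12) of the T cells. The 2 members called lower were Foxp1, at 465, 475 and 468 CPM in T cells and 566, 558 and 560.3 CPM in the RNA, and Btg2, at 179, 171 and 163 CPM in T cells and 197, 210.5 and 192 CPM in the RNA. The fall of Btg2, -0.34 on the log2 scale, was lost with the olfactory receptor level taken off (-0.09).

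GIMAP GTPases, which support lymphocyte survival, divided. Gimap3 had 1183, 1110.4 and 1136 CPM in T cells and 453, 447 and 465 CPM in the RNA. Gimap6 rose by 0.74 (SE 0.045) and Gimap4 by 0.57 (SE 0.047). In all 5 of 8 rose (62.5%, against 18.1% of all kept genes). Gimap1 and Gimap7 were called lower, with groups that overlapped, at 191, 216 and 200.5 CPM in T cells and 208, 219 and 219.6 CPM in the RNA for Gimap1 and 70.5, 63.4 and 64.7 CPM in T cells and 68.5, 80.6 and 74.9 CPM in the RNA for Gimap7. With the olfactory receptor level taken off, 6 members were higher and 0 lower, so no direction is given for these 2.

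Markers of regulatory T cells rose for 6 of 7 kept members (85.7%, against 18.1% of all kept genes), and 0 fell. Izumo1r, a folate receptor relative on these cells, had 88.1, 106 and 111 CPM in T cells and 45.9, 42 and 42.7 CPM in the RNA. Ctla4, an inhibitory receptor, had 43.2, 50.2 and 45.3 CPM in T cells and 21.8, 27.6 and 26.6 CPM in the RNA, a log2 fold change of 0.75 (SE 0.16, adjusted p = 5.4e-05). Tnfrsf18, which encodes GITR, rose by 0.60 (SE 0.22), a call lost under several alternatives, with values from 0.42 to 0.50.

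Genes of cytotoxic T cells and natural killer cells did not move as a group. Of 15 kept members 4 rose (26.7%) and 9 fell (60%), against 18.1% and 41.5% of all kept genes, with a median log2 fold change of -1.03. Ctsw, a protease of cytotoxic lymphocytes, had 185, 166 and 179.6 CPM in T cells and 64.5, 59.8 and 65.6 CPM in the RNA. Nkg7, a granule membrane protein, had 140.3, 139 and 123.2 CPM in T cells and 75, 78.1 and 78 CPM in the RNA. Klrd1, which encodes CD94, rose by 0.66 (SE 0.13), and Eomes, a factor of memory CD8 T cells and natural killer cells, by 0.52 (SE 0.12). On the other side, the chemokine gene Ccl5 had 72.5, 82.4 and 82.9 CPM in T cells and 145, 154 and 150.1 CPM in the RNA, a fall of 1.03 (SE 0.089) on the log2 scale. The list held 0.0725 ± 0.00059% of T cell counts and 0.0736 ± 0.0013% of RNA counts (SD, n = 3 each), a difference smaller than the spread of the RNA libraries.

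The largest rises among kept genes, leaving out receptor segments and predicted genes, included 0 members of the T cell lists. Als2cl had 485, 532 and 517 CPM in T cells and 50.1, 53.5 and 58.3 CPM in the RNA, a log2 fold change of 3.13 (SE 0.069, adjusted p = 1.3e-45). Vipr1, a receptor for vasoactive intestinal peptide, had 164, 189 and 199.9 CPM in T cells and 26.7, 32.4 and 35.5 CPM in the RNA. Tnfrsf25, death receptor 3, had 66.9, 76.4 and 69.1 CPM in T cells and 11.7, 12.5 and 9.36 CPM in the RNA. Groups stood well apart for all 3. Ephb6, an Eph receptor with no active kinase, rose by 2.42 (SE 0.18), and Ly6c1, which shares much of its sequence with Ly6c2, by 2.46 (SE 0.21). Less abundant were Gabrr2, a GABA receptor subunit, at 25.7, 13.8 and 16.8 CPM in T cells and 2.63, 1.2 and 2.4 CPM in the RNA, and Rgs11, a regulator of G protein signalling, at 44.3, 38.3 and 27.9 CPM in T cells and 4.09, 6.14 and 4.8 CPM in the RNA. Igsf23, Tdrp, Pdlim4, Dzip1 and Pmel completed the 12 genes, with log2 fold changes of 2.96, 2.59, 2.59, 2.46 and 2.43. With the same genes left out, the 12 largest falls were 5 neutrophil genes, 5 immunoglobulin or J chain genes and 2 Y-linked genes, all described below.

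B cell genes were lower in T cells throughout, all 20 members of the list, where 41.5% of all kept genes were lower. Their median log2 fold change was -4.14. Ms4a1, which encodes CD20, had 52.1, 61.2 and 63.2 CPM in T cells and 1414, 1439.9 and 1455 CPM in the RNA. The highest T cell library lay far below the lowest RNA library for this gene. The list held 0.0663% to 0.0681% of the counts of a T cell library and 1.05% to 1.07% of an RNA library, and 1 of the 20 members stood at or under the 95th percentile of olfactory receptor genes in T cells. B cell transcripts were thus measured in the T cell libraries, with a ratio of RNA over T cell share of 15.8, and their part in other results was not tested.

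Immunoglobulin genes had the lowest median of the 18 cell type lists. All 12 constant region and J chain genes were lower, with a median of -6.76. In T cells, 2 of the 12 stood at or under the 95th percentile of olfactory receptor genes. Ighm, the mu heavy chain, had 823, 784 and 904 CPM in T cells and 19577, 19482 and 19857 CPM in the RNA, and Ighd, the delta heavy chain, had 79.8, 93.2 and 101 CPM in T cells and 1486, 1431 and 1478 CPM in the RNA. Switched classes stood at lower fold changes than these 2 of naive B cells, a difference not tested: Ighg2c had 5.86, 6.06 and 5.58 CPM in T cells and 2533, 2410.2 and 2443 CPM in the RNA, and Igha had 1.95, 4.41 and 3.82 CPM in T cells and 1203, 1201 and 1216 CPM in the RNA. The log2 fold changes were -4.66 for Ighm, -4.12 for Ighd, -8.82 for Ighg2c, -8.58 for Igha, -8.24 for Ighg2b and -7.95 for Ighg3, with SE of at most 0.13. The kappa constant gene Igkc fell by 6.85, to a level of 200.1 CPM per kb in T cells, against 21339 CPM per kb in the RNA. The heavy and light chain classes resemble each other in sequence, and reads that fit more than 1 may be split among them. Immunoglobulin variable genes followed, with 145 of 147 kept members lower and 0 higher. These counts partly follow from the rule for kept genes, as the bar is lower in the RNA. All such genes, kept or not, held 0.0131% of T cell counts and 0.467% of RNA counts.

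Plasma cell genes fell for 10 of 11 members (90.9%, against 41.5% of all kept genes). In T cells, 3 of the 11 stood at or under the 95th percentile of olfactory receptor genes. Jchain, which links IgM and IgA into polymers, had 6.69, 4.96 and 4.41 CPM in T cells and 1581, 1523 and 1541 CPM in the RNA. Mzb1, an endoplasmic reticulum chaperone of antibody secretion, had 2.79, 1.65 and 2.94 CPM in T cells and 186, 169 and 157 CPM in the RNA. Xbp1, the secretory factor, fell by 2.17 (SE 0.083), and Edem2, of the same compartment in many cell types, by 0.79 (SE 0.12).

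Antigen presentation by MHC class II fell for all 10 genes, with a median of -4.32, where 41.5% of all kept genes fell. Cd74, the invariant chain, had 289, 299.9 and 325 CPM in T cells and 7072, 6972 and 6939 CPM in the RNA. H2-Aa had 89.2, 79.9 and 90.2 CPM in T cells and 2199, 2068 and 2166 CPM in the RNA. The other chains H2-Ab1 and H2-Eb1 changed by -4.47 and -4.87. Dendritic cell genes also fell, 10 of 10, although 6 of them stood at or under the 95th percentile of olfactory receptor genes in T cells. Itgax, which encodes CD11c, had 23.7, 24 and 12.6 CPM in T cells and 80.0, 82.9 and 82.1 CPM in the RNA, and Siglech, of plasmacytoid dendritic cells, had 3.35, 1.1 and 2.35 CPM in T cells and 22.2, 25.2 and 21.5 CPM in the RNA. Tcf4, their lineage factor, changed by -3.27 (SE 0.11) and Cd209a by -1.89 (SE 0.34).

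All 21 macrophage and monocyte genes and all 10 red pulp macrophage genes were lower in T cells, where 41.5% of all kept genes were. In T cells, 4 of the 21 and 3 of the 10 stood at or under the 95th percentile of olfactory receptor genes. Lyz2, lysozyme, had 24.5, 22.6 and 25 CPM in T cells and 1359, 1350.4 and 1364 CPM in the RNA. Csf1r, the receptor for macrophage colony-stimulating factor, had 16.2, 15.4 and 22 CPM in T cells and 505, 507 and 489 CPM in the RNA. C1qb, a complement chain of tissue macrophages, had 4.18, 4.69 and 5.88 CPM in T cells and 150.1, 153 and 152 CPM in the RNA. No T cell library came near an RNA library for any of the 3. Ctss, cathepsin S, fell less, by 2.19 (SE 0.059). Of the iron-recycling genes, Hmox1, heme oxygenase, had 12.5, 8.55 and 10.9 CPM in T cells and 356, 349 and 348 CPM in the RNA, and Slc40a1, the iron exporter ferroportin, had 20.4, 19.8 and 16.8 CPM in T cells and 542, 496 and 515 CPM in the RNA. Vcam1, an adhesion molecule on these macrophages, changed by -5.09 (SE 0.092) and Axl, a receptor for dying cells, by -3.98 (SE 0.11).

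Neutrophil and red cell genes were lower as well. All 15 neutrophil genes were lower, with a median of -4.70, where 41.5% of all kept genes were lower. In T cells, 4 of the 15 stood at or under the 95th percentile of olfactory receptor genes. S100a8 had 4.18, 3.31 and 5.58 CPM in T cells and 925, 838 and 849.6 CPM in the RNA. S100a9, its partner in calprotectin, had 3.35, 1.93 and 5.88 CPM in T cells and 969.8, 941 and 957 CPM in the RNA. Ngp, a granule protein of immature neutrophils, had 2.79, 2.21 and 5.29 CPM in T cells and 1238, 1247 and 1252 CPM in the RNA. Every T cell library lay far below every RNA library for the 3 genes. Ltf, lactoferrin, and Camp, the cathelicidin, changed by -7.89 (SE 0.088) and -7.95 (SE 0.19). The list held 0.00722 ± 0.00084% of T cell counts and 0.536 ± 0.013% of RNA counts (SD, n = 3 each), a ratio of RNA over T cells of 74.2. All 13 erythroid genes were lower, and 2 of them stood at or under the 95th percentile of olfactory receptor genes in T cells. The beta globin Hbb-bs had 22, 16.8 and 19.1 CPM in T cells and 1770.3, 1685 and 1731 CPM in the RNA, and the alpha globin Hba-a1 had 13.9, 13.8 and 14.4 CPM in T cells and 953, 1057 and 1091 CPM in the RNA. The other copies Hbb-bt and Hba-a2 changed by -6.44 and -6.89, and the split within each pair of copies is uncertain.

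Rarer cell types were seen weakly. Of 7 kept platelet genes 5 fell (71.4%, against 41.5% of all kept genes). In T cells, 7 of the 9 list members stood at or under the 95th percentile of olfactory receptor genes. Ppbp had 0.558, 1.65 and 0.588 CPM in T cells and 24.8, 23.5 and 19.9 CPM in the RNA. Pf4, like Ppbp a platelet chemokine, had 0.558, 0.827 and 0 CPM in T cells and 5.85, 8.54 and 7.21 CPM in the RNA. Of 6 kept mast cell and basophil genes 5 fell (83.3%), and 5 of the 7 list members stood at or under that percentile in T cells. Prss34, a basophil protease, had 3.35, 2.21 and 2.35 CPM in T cells and 16.5, 14.5 and 13.7 CPM in the RNA. Mcpt8, another basophil protease, had 3 counts over the T cell libraries, and its ratio of RNA over T cells was 26.2 (95% counting interval 8.83 to 129). Only 3 of 14 stromal and endothelial genes were kept, and 11 of the 14 stood at or under the 95th percentile of olfactory receptor genes in T cells and 4 in the RNA. Stab2, a scavenger receptor of sinus lining cells, had 13.9, 9.37 and 16.8 CPM in T cells and 29.8, 36 and 30.9 CPM in the RNA. Pecam1, which many leukocytes share with endothelium, had 203, 212 and 208 CPM in T cells and 213, 224 and 237 CPM in the RNA, and its fall of 0.23 ended under library sizes alone (-0.11) and turned with the olfactory receptor level taken off (0.011).

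**Figure D4:**
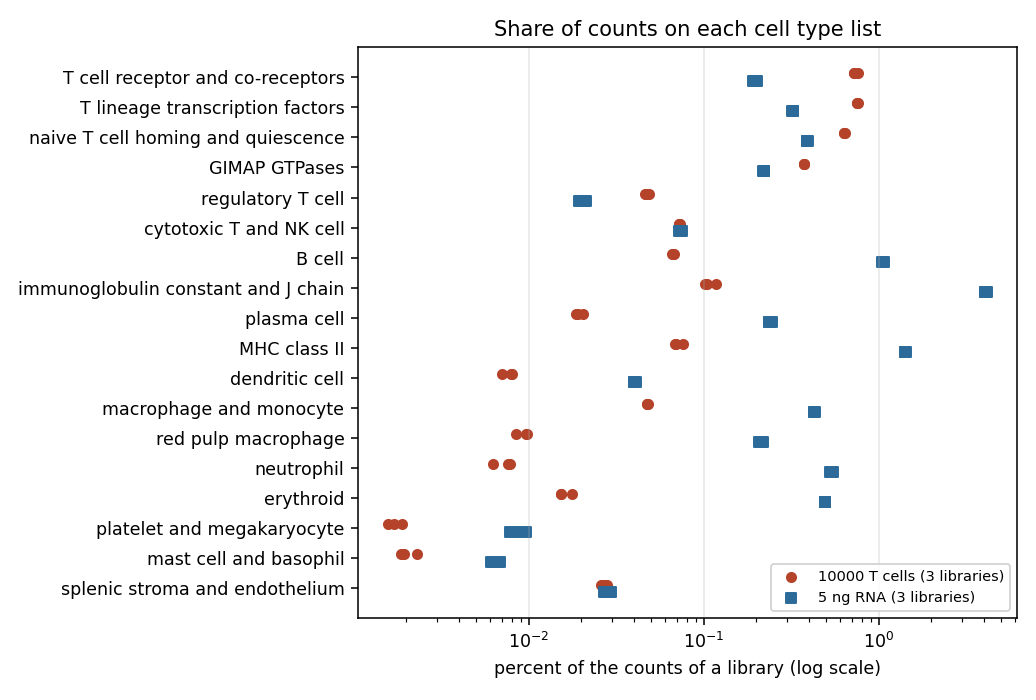
Percent of the counts of each library (log scale) on 18 cell type lists, with 10000 T cells as circles above 5 ng RNA as squares. The 5 T cell lists at the top lie to the right in T cells, the cytotoxic list (0.0725% against 0.0736%) and the stromal list (0.0269% against 0.0283%) overlap, and the other 11 lie to the left.

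The RNA therefore held transcripts of B cells, plasma cells, T cells, macrophages, neutrophils and red cells at once. RAW 264.7 is a macrophage line and is not known to make rearranged immunoglobulin kappa, CD3 chains or globins. In the RNA libraries Igkc stood at 10787, 11331 and 11939 CPM, Cd3e at 98.7, 101 and 95.5 CPM and Hbb-bs at 1770.3, 1685 and 1731 CPM, values that go against the label of that line, so the material is called RNA here. All members of the B cell, immunoglobulin, T cell receptor, neutrophil and erythroid lists stood above the 95th percentile of olfactory receptor genes in the RNA.

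Costimulation and checkpoint genes moved in both directions. Of 14 such genes 4 rose (28.6%) and 7 fell (50%), against 18.1% and 41.5% of all kept genes. Cd28, the main costimulatory receptor, had 259.6, 243 and 273 CPM in T cells and 78.6, 85.2 and 70.8 CPM in the RNA. Cd40lg, by which helper T cells activate B cells, had 67.5, 83.8 and 76.7 CPM in T cells and 14.9, 12.5 and 14.7 CPM in the RNA. Icos, an inducible relative of CD28, rose by 1.03 (SE 0.12). Btla, an inhibitory receptor that B cells hold in quantity, fell to 129, 137 and 119 CPM in T cells, against 402, 409.7 and 378 CPM in the RNA.

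Among chemokine receptors 3 of 15 kept members rose (20%) and 10 fell (66.7%), against 18.1% and 41.5% of all kept genes. Ccr9, a receptor of gut homing, had 103, 93.7 and 101 CPM in T cells and 24.7, 23.9 and 21.7 CPM in the RNA, and Cxcr6 had 78.4, 70.3 and 72.3 CPM in T cells and 28.2, 35.1 and 36 CPM in the RNA. Cxcr5, which guides B cells into follicles, had 36.3, 43.8 and 49.7 CPM in T cells and 354, 350.2 and 352 CPM in the RNA. Cxcr4, a receptor of most leukocytes, fell by 1.54 (SE 0.12). For Cxcr3, of effector T cells, T cells had 70.5, 73.9 and 75.2 CPM and the RNA 72.2, 75 and 69.9 CPM, with overlapping groups and a log2 fold change of -0.094 (SE 0.11) that did not pass.

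Integrins gave 5 rises (38.5%) and 7 falls (53.8%) among 13 genes, against 18.1% and 41.5% of all kept genes. Itgb7, the beta chain of gut-homing integrins, had 953, 981 and 981 CPM in T cells and 355, 343 and 368 CPM in the RNA. Itgal, the alpha chain of LFA-1, had 872, 969 and 944 CPM in T cells and 564, 566 and 545 CPM in the RNA, while its partner Itgb2, shared with myeloid integrins, had 669, 735 and 702 CPM in T cells and 602, 614 and 608 CPM in the RNA and was not called (log2 fold change 0.096, adjusted p = 0.072), though it was called higher under 5 settings, with values from 0.098 (DESeq2) to 0.36 (olfactory receptor level taken off), and its sign turned with no filter on low counts (-0.0046). Itga6, a laminin receptor chain, and Itgb3, a vitronectin receptor chain, rose by 1.00 and 1.15, and Itgb1 fell by 0.87 (SE 0.064).

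Cytokine receptors gave 9 rises (42.9%) and 8 falls (38.1%) among 21 kept genes, against 18.1% and 41.5% of all kept genes. Their median of 0.049 turns sign under 2 settings. Il2rb, a chain shared by the receptors for interleukins 2 and 15, had 449.5, 441 and 489 CPM in T cells and 248, 247 and 252 CPM in the RNA, and Il2rg, the common gamma chain, had 306, 337 and 347 CPM in T cells and 185, 174 and 174 CPM in the RNA. Ifngr1 and Ifngr2, the interferon gamma receptor, changed by -0.33 and -0.85, and the first of these calls was lost with the olfactory receptor level taken off (-0.08). Il10ra fell by 1.74 (SE 0.085). Of 9 kept cytokine genes 1 rose (11.1%) and 4 fell (44.4%), against 18.1% and 41.5% of all kept genes. The riser was Ltb, lymphotoxin beta, at 406, 403 and 435 CPM in T cells and 319.5, 311 and 309 CPM in the RNA. Tgfb1 had 200.5, 207 and 203 CPM in T cells and 319, 277 and 298 CPM in the RNA.

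Kept genes of innate receptors were lower. All 12 kept members of the Toll-like receptor list fell, with a median of -2.33. So did all 9 kept Fc receptor genes, with a median of -3.44, where 41.5% of all kept genes fell. Of the 13 Toll-like receptor list members tested, 1 was called higher and was not kept. The count of 12 thus partly follows from the rule for kept genes. In T cells, 4 of these 13 and 3 of 10 Fc receptor genes stood at or under the 95th percentile of olfactory receptor genes. Cd180, a Toll-like relative on B cells, had 11.2, 12.4 and 11.8 CPM in T cells and 348, 307 and 302 CPM in the RNA. Unc93b1, which carries nucleic acid sensing Toll-like receptors to endosomes, had 46.3, 33.6 and 37.9 CPM in T cells and 516, 512 and 488 CPM in the RNA. Tlr1 was closer, at 114, 107 and 121 CPM in T cells and 151, 151 and 151 CPM in the RNA. Myd88, the adaptor of most of them, fell by 0.31 with overlapping groups, a call lost under 5 settings, library sizes alone (-0.20) among them. Fcmr, an IgM receptor, and Fcer2a, the low-affinity IgE receptor, both used by B cells, changed by -4.49 and -4.13, and Fcgr3, an IgG receptor of myeloid and natural killer cells, by -3.22 (SE 0.21).

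MHC class I, which nearly all cells carry, changed little. Of the 11 genes 5 rose (45.5%) and 2 fell (18.2%), against 18.1% and 41.5% of all kept genes. H2-K1 had 4336, 4294 and 4455 CPM in T cells and 3076, 3012 and 3045 CPM in the RNA. B2m, the light chain, had 1381, 1308 and 1363 CPM in T cells and 1651, 1587 and 1655 CPM in the RNA, a fall of 0.38 (SE 0.038). The heavy chain gene H2-D1 was not called (log2 fold change 0.062, adjusted p = 0.11). It was called higher with DESeq2 size factors (0.097), library sizes alone (0.17), thinning (0.12) and the olfactory receptor level taken off (0.325). The split moved to 4 and 4 with no filter on low counts and to 8 and 1 with the olfactory receptor level taken off, and class I genes share sequence, so no direction is given for the group. Lysosomal genes fell for 16 of 17 members (94.1%, against 41.5% of all kept genes). Psap, prosaposin, had 317, 316 and 335 CPM in T cells and 1771, 1792 and 1844 CPM in the RNA, and Ctsb, cathepsin B, had 178, 207 and 180.2 CPM in T cells and 997, 1009 and 1010.4 CPM in the RNA.

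All 23 cell cycle genes were lower in T cells, with a median of -1.63, where 41.5% of all kept genes were lower. Mki67, which encodes the Ki-67 antigen of dividing cells, had 164, 138 and 172 CPM in T cells and 657, 691 and 688 CPM in the RNA. Mcm6, a subunit of the replicative helicase, had 129.7, 127 and 138 CPM in T cells and 175, 198 and 179 CPM in the RNA, a smaller fall of 0.60 (SE 0.076). Pcna, the replication clamp, overlapped between groups at 161, 141 and 168 CPM in T cells and 171, 158 and 163 CPM in the RNA, and its fall of 0.18 turned with the olfactory receptor level taken off (0.068). In that setting 19 of the 23 were called lower and 0 higher.

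Immediate early genes, which cells switch on within minutes of a stimulus or of handling, were higher for 13 of 16 members. This was 81.2%, against 18.1% of all kept genes, with a median of 0.73. Junb had 601, 579 and 569 CPM in T cells and 265, 282 and 267 CPM in the RNA. Ier2 had 142, 146 and 149 CPM in T cells and 80.0, 85 and 86 CPM in the RNA, and Dusp2, a phosphatase induced by activation, had 244, 266 and 275 CPM in T cells and 195, 193 and 204 CPM in the RNA. Zfp36, which destabilises cytokine mRNA, rose by 0.33 (SE 0.061). The 2 that fell were Egr3, at 31.5, 19 and 21.8 CPM in T cells and 41.4, 36.6 and 38.2 CPM in the RNA, and Atf3, at 1.12, 3.31 and 1.18 CPM in T cells and 4.68, 4.54 and 4.3 CPM in the RNA. The call of Atf3 was lost under 6 settings, with values from -1.40 to -1.13. Dissociation and isolation of cells go with the T cell group and cannot be told apart from cell type here.

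Interferon response genes did not move together, with 8 rises (44.4%) and 5 falls (27.8%) among 18 kept members. Of all kept genes 18.1% rose and 41.5% fell. Irf7 had 135, 117 and 116 CPM in T cells and 61.7, 57.8 and 70.3 CPM in the RNA. Rsad2, viperin, had 21.8, 19.8 and 18.5 CPM in T cells and 133, 119 and 126 CPM in the RNA. Stat2, which relays interferon signals, changed by -0.51 and Isg15 by -0.95 (SE 0.26). With the olfactory receptor level taken off, 10 rose and 2 fell, and the call of Isg15 (-0.76) was lost.

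Genes of glycolysis gave 3 rises (20%) and 7 falls (46.7%) among 15, near the 18.1% and 41.5% of all kept genes, or 6 and 4 with the olfactory receptor level taken off. Aldoa had 265, 253 and 253 CPM in T cells and 355, 365 and 365 CPM in the RNA. Hk1, the hexokinase of most tissues, had 223, 177 and 207 CPM in T cells and 139, 133 and 155 CPM in the RNA, and Pfkp, a phosphofructokinase, rose by 0.32 (SE 0.071). Ldha, lactate dehydrogenase, was not called (log2 fold change 0.066, adjusted p = 0.3). It was called higher under library sizes alone (0.18) and with the olfactory receptor level taken off (0.32). In the Bcl2 family 3 of 13 kept genes rose (23.1%) and 9 fell (69.2%), against 18.1% and 41.5% of all kept genes. Mcl1, a survival factor, had 583, 613 and 597 CPM in T cells and 992, 914 and 945 CPM in the RNA. Bid, which promotes cell death, had 26.2, 38.9 and 37.6 CPM in T cells and 75.1, 93.3 and 85.7 CPM in the RNA. The 3 rises were small, 0.17 for Bcl2, 0.36 for Bcl2l11, which encodes BIM, and 0.55 for Bbc3, which encodes PUMA, and 0 members were called higher without replicate 2 of the RNA. The call of Bcl2 was also lost with no filter (0.064), with a replicate block (0.17) and without any other 1 of the 6 libraries (0.11 to 0.15), and that of Bbc3 without replicate 1 of the RNA (0.42) or replicate 2 (0.45) or 3 (0.49) of the T cells, with no filter (0.45) and under thinning (0.49).

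The 4 Y-linked genes had the lowest median of all 39 lists, at -7.90. Uty, a histone demethylase relative, had 0 counts in all 3 T cell libraries and 50.3, 40.2 and 40.2 CPM in the RNA, at least 153-fold lower in T cells when the group is given the floor of 3 counts. Ddx3y, an RNA helicase, had 1.12, 0.551 and 0 CPM in T cells and 155, 142 and 149 CPM in the RNA. Eif2s3y, a translation factor, had 0.558, 0.551 and 0 CPM in T cells and 70.2, 68.6 and 92.9 CPM in the RNA. Kdm5d, a histone demethylase, had 0.837, 0.551 and 0 CPM in T cells and 73.4, 63.4 and 78.6 CPM in the RNA. All 4 stood at or under the 95th percentile of olfactory receptor genes in T cells and above it in the RNA, and the 1000 T cell libraries had 0 counts for 3 of them. The labels used here give no sex for either material, so the groups may come from animals of different sex, which was not tested.

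Genes that every cell uses differed little, and the direction of the ribosomal protein genes depended on scaling. Of 78 kept ribosomal protein genes 14 rose and 30 fell (17.9% and 38.5%, near the shares of all kept genes), against 28 and 16 under library sizes alone and 48 and 5 with the olfactory receptor level taken off, so no direction is given. Rplp0, of the ribosomal stalk, had 2672, 2527 and 2780.4 CPM in T cells and 1993, 1963 and 2028 CPM in the RNA, and Rplp1 rose by 0.30 (SE 0.044). Nuclear-encoded genes of oxidative phosphorylation gave 0 rises and 29 falls among 73 (39.7%, near the 41.5% of all kept genes), but 7 and 8 with the olfactory receptor level taken off. Cox8a had 72.2, 55.4 and 62.3 CPM in T cells and 87.7, 87.3 and 90.0 CPM in the RNA. Proteasome genes gave 0 rises and 22 falls among 36 kept (0% and 61.1%, against 18.1% and 41.5% of all kept genes). Of the 38 tested, 2 were called higher and neither was kept, so the 0 rises partly follow from the rule for kept genes. With the olfactory receptor level taken off, the 36 kept genes gave 3 and 9 (8.33% and 25%, against 26.3% and 34.3% of kept genes). The calls of Psma6 (-0.25) and Psmb4 (-0.17) were lost in that setting.

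Mitochondrially encoded genes were lower for 10 of 13 members (76.9%, against 41.5% of all kept genes), with a median of -0.52. The cytochrome oxidase gene mt-Co1 had 7224, 7424 and 6882 CPM in T cells and 10233, 10282 and 10277 CPM in the RNA. Its neighbour mt-Co2 had 46.8, 56 and 46.1 CPM in T cells and 88.7, 86.4 and 91.3 CPM in the RNA, and mt-Co3 had 57.2, 72.2 and 67.3 CPM in T cells and 121, 113 and 132 CPM in the RNA. Cytochrome b, mt-Cytb, fell by 0.52 (SE 0.033), mt-Nd4 by 0.41, mt-Nd6 by 0.51 and mt-Atp6 by 0.73. With the olfactory receptor level taken off, 1 rose and 7 fell (7.69% and 53.8%, against 26.3% and 34.3% of kept genes). In that setting mt-Nd2 turned to 0.12. The list held 1.74 ± 0.060% of T cell counts and 2.27 ± 0.022% of RNA counts (SD, n = 3 each).

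Exon length moved weakly with the change. Across the 9467 kept genes Spearman's rho of log2 fold change with exon length was 0.131, given as a description over genes that are not independent. The median exon length was 5013 bases in kept genes called higher, 4217 in those called lower and 3895 in those not called. What part length has in single genes was not tested.

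The same contrast was measured at a smaller input, in 1000 T cells and 1 ng RNA, which share no library with the larger one. Of 5651 kept genes called at the larger input, 5546 were tested at the smaller, 5143 of them (92.7%) had the same sign, 3382 (61.0%) were called in the same direction and 20 in the opposite one. The test of the difference between both contrasts called 215 of 15190 genes (1.42%), and 203 of 9428 kept genes (2.15%), 121 of which had a higher and 82 a lower log2 fold change at the larger input. Each difference is fitted over all 12 libraries at once and so is not the plain subtraction of the separately fitted values. For the CD3 chains this test did not pass. Cd3e rose by 2.01 at the larger and 2.09 at the smaller input, a difference of -0.0081 (SE 0.11). Lck rose by 1.88 and 1.86, a difference of 0.086 (SE 0.087), and Cd79a changed by -4.35 and -4.63, a difference of 0.36 (SE 0.15), neither of which passed.

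Globins were among the genes that differed. Hbb-bs had 71.1, 71.1 and 74.3 CPM in 1000 T cells and 1664, 1710.2 and 1606 CPM in 1 ng RNA, so its log2 fold change was -6.59 at the larger input and -4.53 at the smaller, a difference of -1.99 (SE 0.11, adjusted p = 8.4e-18). The RNA libraries were close to each other at both inputs, and the T cell libraries of 1000 cells held more globin than those of 10000 cells. Csf1r, the 1 of 21 macrophage and monocyte genes to pass, differed the same way, at 33.4, 44.6 and 35.2 CPM in 1000 T cells and 467, 544 and 456 CPM in 1 ng RNA, a difference of -1.15 (SE 0.17). Of 10 MHC class II genes 3 differed the other way and 0 the same way. Cd74 had 195, 220.2 and 185 CPM in 1000 T cells and 7073, 7153 and 6767 CPM in 1 ng RNA, below its level in 10000 T cells, and the difference was 0.57 (SE 0.063, adjusted p = 3.7e-08). Egr3 had 5.08, 4.79 and 9.19 CPM in 1000 T cells and 40.1, 33.9 and 42 CPM in 1 ng RNA, a difference of 1.89 (SE 0.36).

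**Figure D5:**
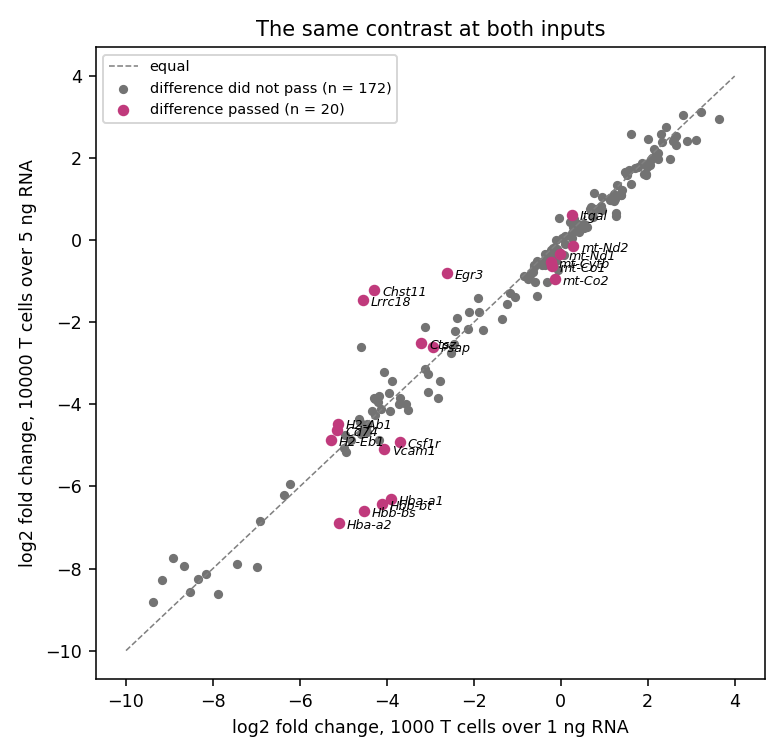
Log2 fold change of 10000 T cells over 5 ng RNA (vertical) against that of 1000 T cells over 1 ng RNA (horizontal) for named genes with more than 3 counts in each T cell group, with the dashed line marking equal values. The 20 genes whose difference between contrasts passed the test are coloured and named, and the 172 others lie along the line.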

How the data were processed

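The libraries were 6 of 23, from 10000 splenic CD3+ T cells and 5 ng RNA (3 each), with 3 libraries each of 1000 T cells and 1 ng RNA for 1 further test. The deposited table holds whole-number counts per gene symbol with no normalization by the authors. Per the submitters' processing notes, HISAT2 2.1.0, featureCounts (no version given) and the build mm8 were used. The strand setting is not given in the sources used here, so reads of overlapping or antisense genes cannot be told apart. Even numbers made up 57.9% to 61.8% of nonzero counts per library, and there are no molecular identifiers, so counts are not independent molecules, and intervals and floors (3 counts, 95%) cover counting error only.

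CPM are counts scaled to the library total. Exon lengths came from GENCODE release M21 (GRCm38) for 22391 of 22488 symbols (99.6%). No position was taken across builds, and the promoter windows are RefSeq's on GRCm38.p6. Groups were compared with edgeR 4.0.16 in R 4.3.3 (TMM, filterByExpr, quasi-likelihood test, Benjamini-Hochberg adjustment over all genes tested, threshold 0.05), and SE is the log2 fold change divided by the root of F. The difference between the 2 contrasts is an interaction term in 1 fit of the 12 libraries. The fit was tested on simulated data.

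Kept genes are defined in the text, with olfactory and vomeronasal receptors left out. Named genes were the 12 largest rises and 12 largest falls among kept genes whose groups did not overlap, without variable segments and predicted genes. To these were added the up to 4 most abundant kept members of each of 39 lists, up to 4 members against the direction of their list, all members of 4 lists, and the 6 largest interactions. Some genes that these rules name are not reported here. Members, lists and rules were chosen with earlier results of these data known. Replicate numbers did not pair libraries, with residual correlations from -0.0256 to 0.0174. The alternatives were DESeq2 1.42.0, its size factors, library sizes alone, no filter, a replicate block, thinning, subtraction of the olfactory receptor level, other bars, a 1.5-fold threshold, and leaving out each library.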

Additional observations from a re-analysis of the deposited data

Results flagged for a closer look

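For 24 named genes the log2 fold change of T cells over RNA differed between the larger input (10000 T cells, 5 ng RNA) and the smaller (1000 T cells, 1 ng RNA), by the edgeR interaction test with adjusted p-values over all genes. Differences below are larger minus smaller input on the log2 scale. Each was measured in 3 libraries per group.

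Of all kept genes, 2.15% passed this test in either direction. All 4 globin genes were relatively lower in T cells at the larger input, by -1.99 for Hbb-bs, -2.34 for Hba-a1, -2.26 for Hbb-bt and -1.72 for Hba-a2. Of 13 erythroid genes, globins included, 7 passed, each in this direction. Vcam1 (-0.96) and Csf1r (-1.15) moved the same way, but among macrophage genes they were exceptions: 1 of 21 macrophage and monocyte genes and 2 of 10 red pulp macrophage genes passed this test. In contrast, 3 of 10 MHC class II genes moved up, Cd74 by 0.57, H2-Eb1 by 0.48 and H2-Ab1 by 0.72. So did 2 of 17 lysosomal genes, Psap (0.43) and Ctsz (0.77), and 3 of 15 neutrophil genes. Of 12 mitochondrially encoded genes in this test 5 moved down, with mt-Co1 at -0.35, mt-Cytb at -0.23, mt-Nd1 at -0.25, mt-Nd2 at -0.36 and mt-Co2 at -0.75. The integrin gene Itgal moved by 0.44 and Egr3 by 1.89.

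The 6 kept genes with the largest differences among those that passed the test were near or at 0 in 1000 T cells. Thbd (6.84), Ifitm6 (6.09) and Mcemp1 (5.96) had 0 counts there, so their fitted sizes depend on the prior count and are not read. Elane (4.11) had 2 counts, Lrrc18 (3.17) 4 and Chst11 (3.15) 11 over the 3 libraries. The call of Lrrc18 was lost under a replicate block (3.14) and without any 1 of 8 of the 12 libraries (2.58 to 3.24): replicates 1 and 2 of 10000 T cells, all 3 of 5 ng RNA, replicate 1 of 1000 T cells and replicates 2 and 3 of 1 ng RNA. That of Mcemp1 was lost without any 1 of 6 libraries, and those of Ifitm6 and Thbd without replicate 1 and without replicate 3 of 10000 T cells. Ifitm6 had 2.79, 1.65 and 1.18 CPM in 10000 T cells and 56, 45.4 and 46.8 CPM in 5 ng RNA, and Elane, neutrophil elastase, had 5.02, 6.06 and 4.7 CPM in 10000 T cells and 42.2, 41.1 and 38.3 CPM in 5 ng RNA. The part of depth or of the cell preparation in these differences was not tested.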

How the results depend on the processing

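Among kept genes, DESeq2 called 5635, DESeq2 size factors 5585, library sizes alone 5479, no filter 5875, thinning 5275, and 5193 to 5579 were called without 1 library, against 5651. Of the 5651, 5572 were also called by DESeq2 and 4727 with the olfactory receptor level taken off (4711 in the same direction). Tested against a 1.5-fold change, 2509 kept genes were called, 534 higher and 1975 lower. A replicate block gave 7778 of all genes, 5554 kept genes and 192 interaction calls, against 8073, 5651 and 215. Leaving out 1 library gave 7690 to 8397 calls over all genes (4001 to 4296 higher, 3666 to 4104 lower) and, among kept genes, 1453 to 1535 higher and 3658 to 4070 lower.

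The difference between contrasts was less stable. DESeq2 called 558 (303 higher, 255 lower), against 215 (132 higher, 83 lower). Without 1 library the count ran from 111 to 294, with 48 to 183 higher and 50 to 133 lower. It was 111, 122 and 116 without replicate 1, 2 or 3 of 5 ng RNA, and 140 and 129 without replicate 1 or 3 of 10000 T cells. The higher calls alone fell to 74 and 72 without replicate 1 or 2 of 1 ng RNA. The cause was not tested.

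The cytotoxic list, with a share 0.0011 percentage points lower in T cells, turned to 0.00075 with the olfactory receptor level taken off and to 0.0010 with kept genes as denominator. Gene signs that turned were all of small changes. With the olfactory receptor level taken off, Gimap1 came to 0.048, Pecam1 to 0.011, Cxcr3 to 0.15, Pcna to 0.068 and mt-Nd2 to 0.12. Cxcr3 also turned under library sizes alone, to 0.017. With no filter, Ikzf1 came to -0.095, Itgb2 to -0.0046, H2-D1 to -0.039 and Ldha to -0.034. Without 1 library, Ikzf1 ran from -0.049 to 0.0059 and Ldha from -0.013 to 0.090. Of 202 named genes, 182 (olfactory receptor level taken off) to 201 (DESeq2, replicate block) kept their direction and their side of the threshold.

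T cell libraries held fewer counts than RNA libraries, so low genes are less certain there. The bar of kept genes differs between groups, and small rises below it are not read.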
